A study of Rattus norvegicus with 6 samples.

Results

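The genes described here are the sugar and monocarboxylate transporters of rat brain microvascular endothelial cells (rBMECs), chosen by name as every row of the gene table called Slc2a, Slc5a or Slc16a followed by a digit. The rule found 37 of the 33566 genes, 12 in the Slc2a family, 12 in the Slc5a family and 13 in the Slc16a family, and used no measured value. RNA was sequenced from 6 libraries, 3 of cells given homocysteine (Hcy) for 24 h and 3 of cells given vehicle (Veh), which was water. The labels give a dose of 100 µM Hcy, while their protocol and the study's methods speak of a prepared solution of 50 µM. Both groups were primary cells of SD rats 18 to 22 days of age, passaged once and cleared of other cells with a screening solution before treatment. Neither source gives the number of rats behind a library. The series text calls the 3 samples of a group biological replicates, without saying whether they came from separate isolations, so p-values measure the spread between these samples.

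The endothelium of the blood–brain barrier supplies the brain with its fuels. Slc2a genes encode GLUT proteins, most of which let glucose, related sugars or urate run down their gradient, while 1 carries inositol with a proton. GLUT1 (Slc2a1) is the glucose carrier by which brain endothelium is known. Slc16a genes encode MCT proteins, some of which carry lactate, pyruvate and ketone bodies together with a proton, while others carry other substrates such as creatine. Slc5a genes encode carriers that draw on the sodium gradient to take up glucose, inositol, vitamins, iodide or choline.

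Reads counted on genes numbered 14024997 to 16764584 per library. Levels are given as CPM, counts scaled to library size with edgeR's TMM factors. The detection floor was set at 3 counts, or 0.178 to 0.215 CPM, a limit of counting error alone. Over 12296 expressed genes, the first principal component (30.5% of the variance) separated Hcy from Veh, and the second (26.2%) set Veh replicate 3 apart from the other libraries. Of the 12 general endothelial markers, 11 have a row, and their summed level was 8433 to 9922 CPM in Veh and 9991 to 10446 CPM in Hcy. Of the 11 markers of barrier endothelium, 10 have a row, with 414 to 441 CPM in Veh and 453 to 465 CPM in Hcy, but Cldn5, the main claudin of the barrier, had 0 counts in every library. Among the barrier markers Slc7a5, the large neutral amino acid carrier LAT1, alone passed an adjusted p of 0.05 in edgeR (log2 fold change 0.40, adjusted p = 0.0297). By itself Slc7a5 had 119 to 126 CPM in Veh and 154 to 174 CPM in Hcy, a larger gap than that of the barrier sum. Slco1a4, another barrier marker, was lower in every Hcy library (log2 fold change -0.53, edgeR adjusted p = 0.187). With each library left out in turn, Slc7a5 passed in 1 of 6 edgeR fits, and its adjusted p reached 0.148. The 8 mural cell markers summed to 127 to 172 CPM in Veh and 95.6 to 109 CPM in Hcy, and none was at 0. Most of that sum was Acta2, with 123 to 166 CPM in Veh and 90.7 to 103 CPM in Hcy, so the sum largely repeats that gene. Acta2 alone among them passed an adjusted p of 0.05 in edgeR (log2 fold change -0.64, adjusted p = 0.025). The adjusted p of Acta2 reached 0.146 in the least favourable of the alternative fits described below. The 4 fibroblast markers with a row summed to 57.5 to 83.9 CPM in Veh and 35.7 to 57.8 CPM in Hcy, and the 6 oligodendrocyte markers to 11.2 to 11.4 and 10.6 to 12.2 CPM, with Mag at 0. The 5 neuron markers summed to 1.08 to 1.48 CPM in Veh and 1.75 to 2.81 CPM in Hcy, with Rbfox3, Map2 and Snap25 at 0 counts throughout. The 6 astrocyte markers, with Aqp4 and Slc1a2 at 0, reached at most 1.66 CPM in any library, and the 6 microglia and leukocyte markers, with P2ry12, Cx3cr1 and Ptprc at 0, at most 0.900 CPM. In such bulk samples, fewer cells of a type and less RNA per cell cannot be told apart.

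Upstream sequences are shown for the 3 transporters with the highest level per length, to set the windows of the main glucose carrier and the main lactate carriers side by side. Each line is the 250 bases before the gene's start in RefSeq (GRCr8, plus strand, 5′ to 3′), with matches to ACGTG on either strand in capitals. ACGTG is the core of the element bound by hypoxia-inducible factors, and CACGTG, which contains it, is the E-box bound by factors such as MYC, USF and ChREBP. The windows are chr5:138002272-138002521 for Slc2a1, chr2:194812410-194812659 for Slc16a1 and chr10:106712078-106712327 for Slc16a3.
Slc2a1: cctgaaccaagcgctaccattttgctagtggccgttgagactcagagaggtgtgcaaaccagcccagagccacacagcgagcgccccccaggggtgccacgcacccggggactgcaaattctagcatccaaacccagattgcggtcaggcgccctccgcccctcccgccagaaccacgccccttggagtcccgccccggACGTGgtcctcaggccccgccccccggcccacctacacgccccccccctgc
Slc16a1: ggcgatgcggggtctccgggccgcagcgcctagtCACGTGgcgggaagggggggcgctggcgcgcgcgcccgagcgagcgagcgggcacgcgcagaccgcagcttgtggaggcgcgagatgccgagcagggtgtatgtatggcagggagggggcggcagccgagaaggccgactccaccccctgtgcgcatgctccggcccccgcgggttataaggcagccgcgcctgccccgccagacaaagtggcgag
Slc16a3: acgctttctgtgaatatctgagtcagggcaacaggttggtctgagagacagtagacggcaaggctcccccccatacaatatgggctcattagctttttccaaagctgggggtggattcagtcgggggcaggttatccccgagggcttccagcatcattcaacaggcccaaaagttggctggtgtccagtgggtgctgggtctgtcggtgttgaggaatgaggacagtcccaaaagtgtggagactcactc
The Slc2a1 window holds 1 match, which begins 51 bases before the start, and the Slc16a1 window holds a CACGTG that begins 216 bases before it and counts as 2 matches because it reads the same on both strands. The Slc16a3 window holds none. GGGCGG, the GC box read by Sp1, overlaps neither motif and occurs on either strand 3 times in the Slc2a1 window, once in the Slc16a1 window and not in the Slc16a3 window. G and C make up 68.4% of the Slc2a1 window, 74.0% of the Slc16a1 window and 54.0% of the Slc16a3 window. Of the 37 members, 27 have an entry in the RefSeq promoter table, and 5 of these (18.5%) hold ACGTG in the 250 bases, against 16.6% of all 33469 promoters. CACGTG occurs in 3 of the 27 (11.1%) against 5.59% of all promoters, and GGGCGG in 8 (29.6%) against 30.5%. These matches describe the letters of the windows only.

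Which of these transporters do rBMECs express, and at what level? Of the 37 genes, 16 lay above the floor in all 6 libraries, 7 of the Slc2a family, 8 of the Slc16a family and 1 of the Slc5a family. Levels are compared between genes as CPM per kilobase of the gene length in the table. Slc2a1 stood first, at 239.7 ± 5.47 CPM per kilobase in Veh (SD, n = 3) and 192 ± 13.2 in Hcy. Slc16a3, the lactate exporter MCT4, followed with 64.8 ± 4.37 in Veh and 69.3 ± 3.70 in Hcy. Slc16a1, the lactate, pyruvate and ketone body carrier MCT1 of brain capillaries, came next with 52.1 ± 3.80 in Veh and 45.4 ± 1.51 in Hcy. The libraries of these 3 genes did not overlap with those of their neighbours in the order, in either group.

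A middle range lay between 5.53 and 13.9 CPM per kilobase in group means. In Veh it ran from Slc2a4 through Slc2a9, Slc16a13, Slc16a6 and Slc2a6 down to Slc5a6. Slc2a4, Slc2a9, Slc16a13 and Slc16a6 each overlapped with their neighbours in that run of 4, whereas Slc2a6 and Slc5a6 were apart. In Hcy, Slc16a6 stood at the head of this range with 13.9 CPM per kilobase, and its libraries were apart from those of Slc2a4, next below it. Slc2a8, Slc2a13, Slc16a4, Slc16a11, Slc2a12 and Slc16a5 followed, from 3.43 down to 0.172 CPM per kilobase.

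**Figure D1:**
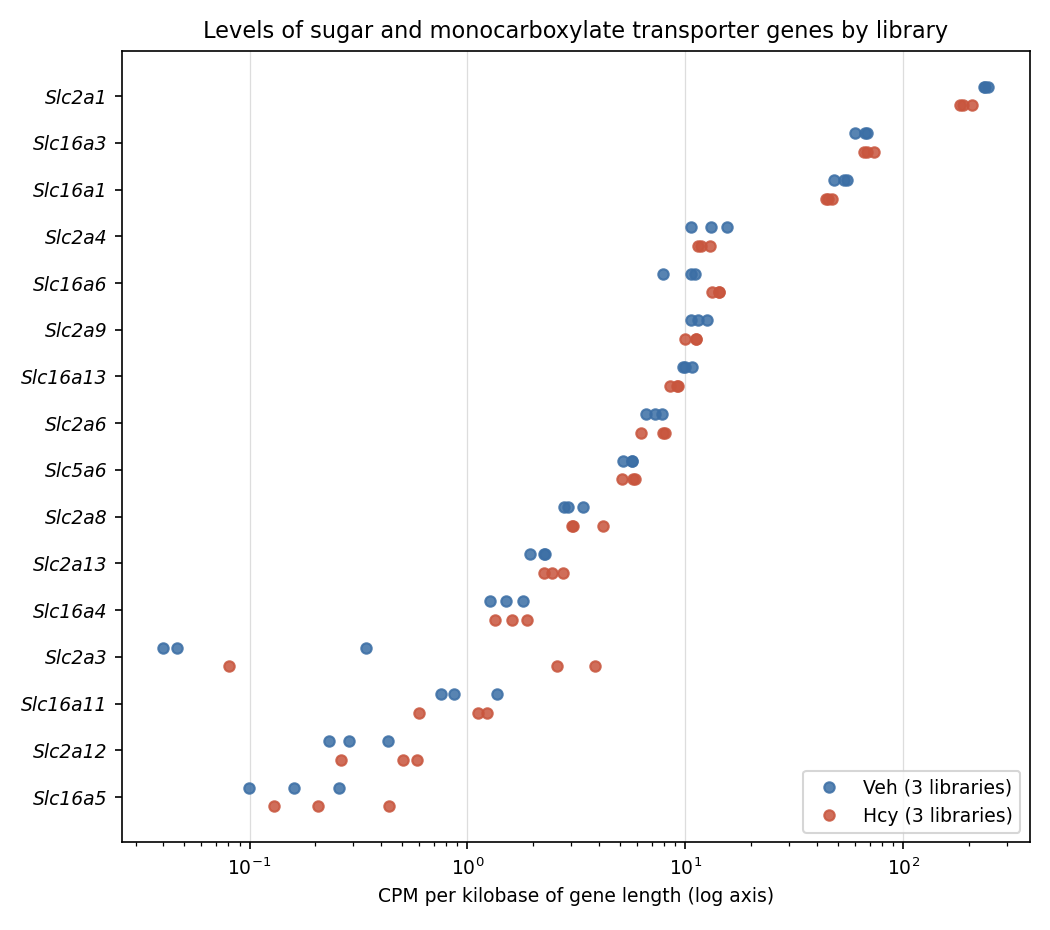
CPM per kilobase of gene length (log axis) in each Veh (blue) and Hcy (red) library, for 15 transporter genes above the floor in all 6 libraries and for Slc2a3. Slc2a1 lies above the rest in all 6 libraries, Slc16a3 and Slc16a1 follow, and Slc2a3 is spread from 0.0400 to 3.85 CPM per kilobase.

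The remaining 21 genes were not above the floor in every library. No count was seen in any library for 8 genes, which allows up to 3 counts per library. They are Slc5a4 and Slc5a4b of the SGLT3 group, Slc5a7 (the choline carrier of cholinergic neurons), Slc5a9, Slc5a11 (an inositol carrier), Slc5a12 (a lactate carrier of the kidney), Slc2a7 and Slc16a10 (a carrier of aromatic amino acids). Another 8 genes had 1 to 9 counts summed over the libraries and were not tested. Among these were Slc5a1, the intestinal glucose carrier SGLT1, with 2 counts in all, Slc2a2, the liver and beta cell carrier GLUT2, with 5, Slc2a5, the fructose carrier GLUT5, with 2, and Slc16a7, the neuronal carrier MCT2, with 1. The others were Slc16a8 with 6 counts, Slc5a8 and Slc2a10 with 3 each, and Slc5a5, the thyroid iodide carrier, with 1. Slc5a3, the inositol carrier SMIT1, has no row under that name and was not analysed here.

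How did Hcy change these genes? With at least 10 counts over the 6 libraries, 21 members were tested, among 14603 genes in all. By edgeR's quasi-likelihood test, 0 of the 21 were called, against 0.486% of all genes tested. A call required an adjusted p (Benjamini-Hochberg) no higher than 0.05 and a log2 fold change of 1 or more in either direction. At the adjusted p alone edgeR passed 0 of 21, against 2.34% of all genes, and at an unadjusted p of 0.05 it passed 4, Slc2a1, Slc16a1, Slc16a6 and Slc2a3, against 13.4%. DESeq2 also called 0 (0.685% of all genes), but its adjusted p alone passed 2, Slc2a1 and Slc16a6, against 4.14% of all genes. In 4 of the 21 members every library of one group lay on the same side of every library of the other, which held for 20.1% of all genes. Lower in every Hcy library were Slc2a1, Slc16a1 and Slc16a13 (9.27% of all genes), and higher in every Hcy library was Slc16a6 (10.8% of all genes). Log2 fold changes were above 0 in 11 members and below 0 in 10 (53.1% of all genes), with a median of 0.01, against a median of -0.02 over all genes tested.

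**Figure D2:**
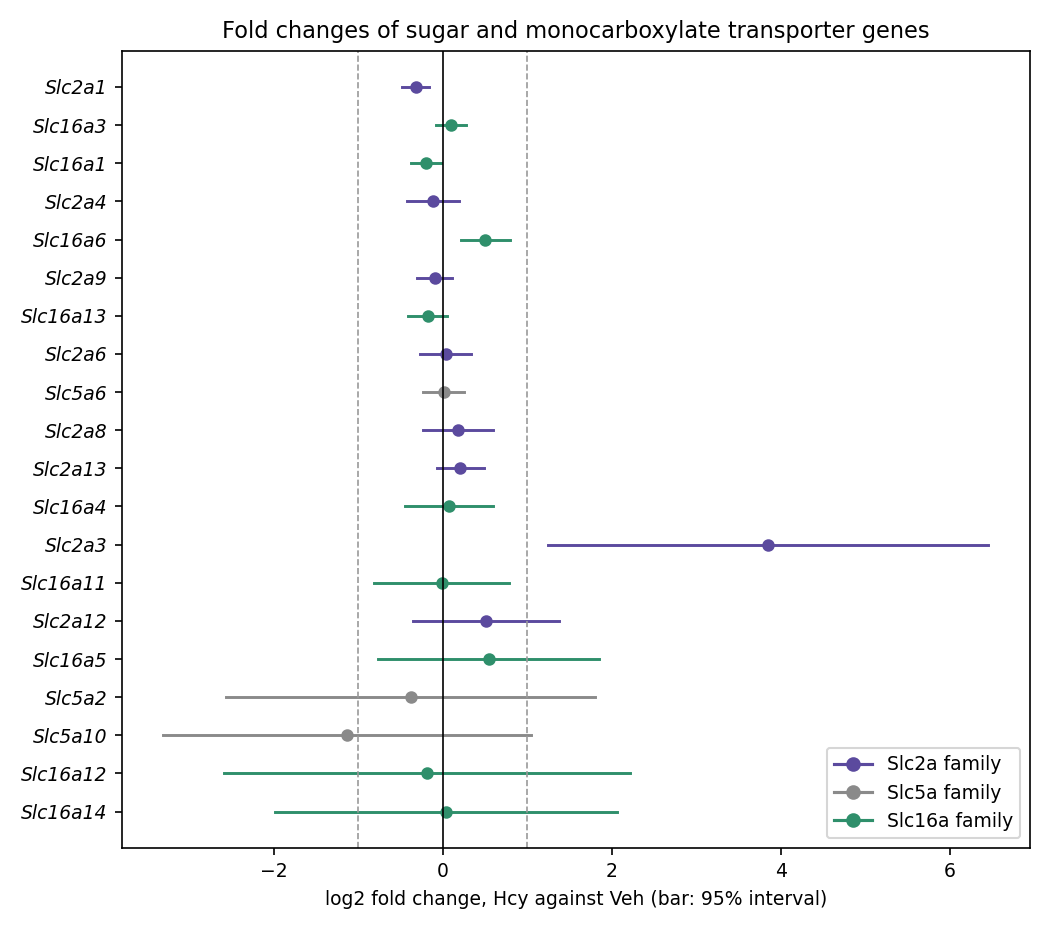
Log2 fold change of Hcy against Veh with its 95% interval from edgeR, for 20 of the transporter genes tested, ordered by level per length from the highest (top); dashed lines mark a log2 fold change of 1 in either direction. The intervals of Slc2a1 and Slc16a1 lie below 0 and those of Slc16a6 and Slc2a3 above it, and the intervals widen toward the low genes at the bottom.

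Slc2a1 (ENSRNOG00000007284, chr5:138154673-138182897 in the table, plus strand) was the most abundant of the sugar carriers. Its level was 637, 616 and 611 CPM in Veh replicates 1, 2 and 3 and 536, 469.6 and 487 CPM in Hcy replicates 1, 2 and 3. All Hcy libraries lay below all Veh libraries, with means of 497 ± 34.2 CPM in Hcy and 621 ± 14.2 CPM in Veh (SD, n = 3). The log2 fold change was -0.32 ± 0.07 (SE), with a 95% interval of -0.48 to -0.16 and an adjusted p of 0.0536 in edgeR, just outside the threshold. DESeq2 gave an adjusted p of 0.00459 for a log2 fold change of -0.32. Without Veh replicate 3, edgeR's adjusted p was 0.0111 and the log2 fold change -0.33. Leaving out each of the other libraries gave -0.38 to -0.28, with adjusted p-values of 0.0940 to 0.260. The sums of the mural, general endothelial, barrier endothelial and neuron markers above also did not overlap between the groups. The mural sum was mostly Acta2, however, and the barrier sum differed by less than Slc7a5 by itself. The part of these markers in the Slc2a1 difference was not tested.

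Of the other Slc2a genes tested, Slc2a3 alone passed an unadjusted p of 0.05. Slc2a4 (chr10:56552983-56558487), the insulin-regulated carrier GLUT4 of muscle and fat, had 38.7, 26.5 and 32.7 CPM in the Veh libraries and 32.4, 29.7 and 28.5 CPM in the Hcy libraries. The groups overlapped, and the log2 fold change was -0.11 (95% interval -0.42 to 0.19). Slc2a9 (chr14:77067503-77192702), the urate carrier GLUT9, had 40.3, 47.7 and 43.3 CPM in Veh and 42.4, 42.5 and 37.8 CPM in Hcy, a log2 fold change of -0.10 (-0.31 to 0.11). Slc2a13 (chr7:132430853-132757558) encodes HMIT, which carries inositol with a proton. It had 12.1, 13.9 and 14.1 CPM in Veh and 15.2, 17.0 and 14.0 CPM in Hcy, with a log2 fold change of 0.21 (-0.07 to 0.49) and overlapping groups. Slc2a6 and Slc2a8, whose proteins sit mainly inside the cell, had log2 fold changes of 0.04 and 0.18, and Slc2a12 (GLUT12) one of 0.51 with an interval of -0.35 to 1.37. Slc2a6 overlaps Cacfd1 on the opposite strand, and since no source used here gives the strand setting of the counting, reads of these genes may be mixed.

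The summed level of the Slc2a family was 284, 274 and 273 CPM per kilobase in Veh replicates 1, 2 and 3 and 248, 223 and 221 in Hcy replicates 1, 2 and 3. The groups did not overlap, and the log2 ratio of their means was -0.26. Slc2a1 alone made up 86.2% to 86.6% of the sum in Veh and 81.4% to 84.9% in Hcy, so the sum largely repeats that gene.

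Slc2a3, the high-affinity glucose carrier GLUT3 of neurons (chr4:155752447-155763500), was singled out after its values were seen. It had 1, 8 and 1 counts in the Veh libraries and 53, 85 and 2 counts in the Hcy libraries. Hcy replicates 1 and 2 were high at 3.81 and 5.71 CPM, while Hcy replicate 3, at 0.119 CPM, lay below the floor and within the range of Veh. The log2 fold change was 3.85 ± 1.15 (SE; 95% interval 1.25 to 6.46) with an adjusted p of 0.156 in edgeR, and without Hcy replicate 3 it was 4.43 with an adjusted p of 0.0312. Leaving out each of the other libraries gave 3.13 (without Hcy replicate 2) to 5.47 (without Veh replicate 2), with adjusted p-values of 0.128 to 0.402. The summed neuron markers were 1.48, 1.08 and 1.38 CPM in Veh replicates 1, 2 and 3 and 2.44, 1.75 and 2.81 CPM in Hcy replicates 1, 2 and 3, highest in the Hcy library where Slc2a3 was low. A near copy of the gene, LOC100909595, which the table matches to the same protein, had 4, 2 and 7 counts in Veh and 1, 2 and 3 in Hcy. The neighbouring genes Foxj2 and Necap1 had 391 to 1180 counts in every library, with log2 fold changes of 0.06 and -0.13.

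Only 2 other genes of the table shared this library pattern, which was defined after Slc2a3 was seen. It required at least 20 counts in both Hcy replicates 1 and 2, each at least 5 times the count of each of the other 4 libraries. LOC100910882 had 188, 212 and 5 counts in the Hcy libraries and 11, 0 and 5 in the Veh libraries. Ncbp2, a subunit of the nuclear cap-binding complex, had 208, 106 and 11 counts in Hcy and 6, 8 and 13 in Veh. Robo4, an endothelial guidance receptor and one of the endothelial markers, missed the rule but was also high in Hcy replicates 1 and 2, with 331, 349 and 56 counts in Hcy and 91, 63 and 39 in Veh. What these libraries share was not tested.

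**Figure D3:**
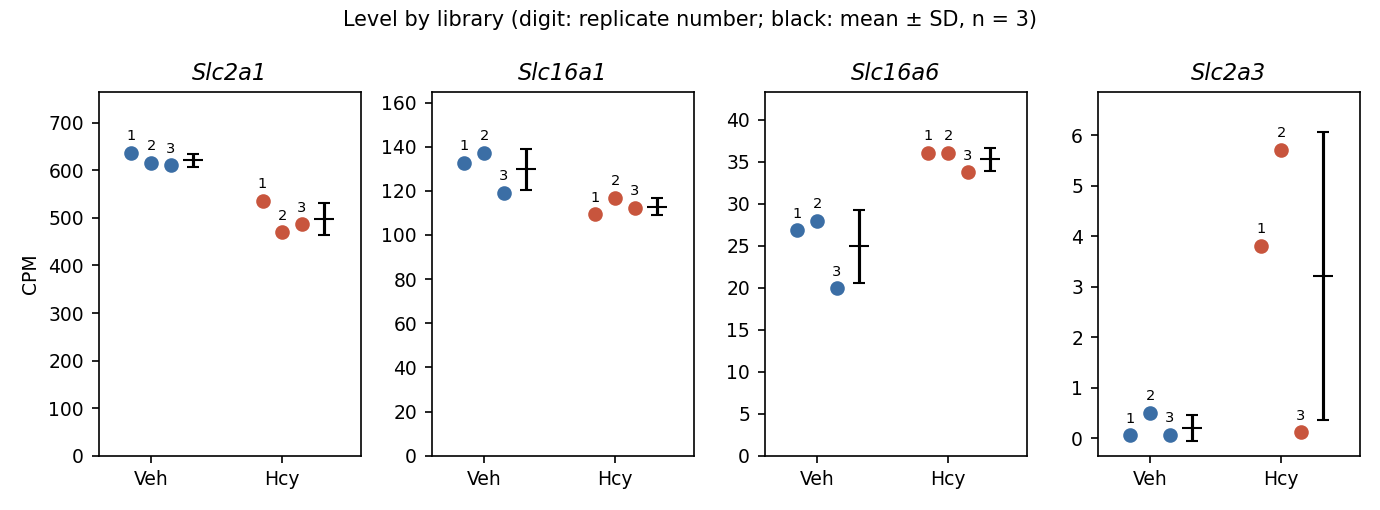
Level in CPM of Slc2a1, Slc16a1, Slc16a6 and Slc2a3 in each Veh (blue) and Hcy (red) library, with the replicate number above each point and the mean ± SD of the group in black (n = 3). The groups are apart for Slc2a1, Slc16a1 and Slc16a6, whereas for Slc2a3 Hcy replicate 3 lies with the Veh libraries.

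Of the monocarboxylate transporters, neither lactate carrier passed the adjusted p in edgeR or DESeq2. Slc16a1 (ENSRNOG00000019996, chr2:207108552-207128554, plus strand) had 133, 137 and 119 CPM in Veh replicates 1, 2 and 3 and 109, 117 and 112 CPM in Hcy replicates 1, 2 and 3. Every Hcy library was below every Veh library, though with library totals alone as the scale Hcy and Veh overlapped. The means were 129.7 ± 9.44 CPM in Veh and 113 ± 3.75 CPM in Hcy (SD, n = 3), and the log2 fold change was -0.20 ± 0.08 (SE; 95% interval -0.38 to -0.02; edgeR adjusted p = 0.296). Without Veh replicate 3, which was the lowest of its group, it was -0.26 with an adjusted p of 0.0326, and without each of the others the adjusted p was 0.453 to 0.595.

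Slc16a3 (ENSRNOG00000036677, chr10:110138586-110148358, plus strand) had 143, 128 and 146 CPM in Veh and 157, 142 and 147 CPM in Hcy. The groups overlapped, and the log2 fold change was 0.10 ± 0.08 (SE; -0.08 to 0.28; edgeR adjusted p = 0.681). The ratio of Slc16a3 to Slc16a1 per kilobase was 1.25, 1.08 and 1.42 in Veh replicates 1, 2 and 3 and 1.67, 1.41 and 1.51 in Hcy replicates 1, 2 and 3. Per kilobase, MCT4 transcript thus exceeded MCT1 transcript in all 6 libraries. In CPM, without gene length, Slc16a3 at 128 lay below Slc16a1 at 137 in Veh replicate 2. The ratio per kilobase overlapped between the groups at Hcy replicate 2 and Veh replicate 3.

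Slc16a6 (ENSRNOG00000000245, chr10:97735548-97756521, minus strand) encodes MCT7, known for ketone body export from liver cells. Its level was 26.8, 28.0 and 19.9 CPM in Veh replicates 1, 2 and 3 and 36.1, 36.1 and 33.7 CPM in Hcy replicates 1, 2 and 3. All Hcy libraries were above all Veh libraries, and Veh replicate 3 was the lowest. The means were 24.9 ± 4.35 CPM in Veh and 35.3 ± 1.35 CPM in Hcy (SD, n = 3). The log2 fold change was 0.50 ± 0.13 (SE), with a 95% interval of 0.21 to 0.79 and an adjusted p of 0.0983 in edgeR. DESeq2 gave 0.0177, and edgeR without Veh replicate 3 gave a log2 fold change of 0.36 with an adjusted p of 0.0271. Leaving out each of the other libraries gave 0.48 to 0.59, with adjusted p-values of 0.110 to 0.289.

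Slc16a13 (chr10:56827594-56831243), an MCT whose gene lies beside Slc16a11, had 20.4, 18.9 and 18.5 CPM in Veh and 17.6, 16.1 and 17.4 CPM in Hcy. The groups did not overlap, but the interval of its log2 fold change of -0.18 ran from -0.41 to 0.05. Slc16a11 had 1.91 ± 0.618 CPM in Veh and 1.88 ± 0.644 CPM in Hcy (SD, n = 3). Of the other tested Slc16a genes, Slc16a4 had a log2 fold change of 0.08 at 40 to 56 counts per library and Slc16a5 one of 0.54 at 4 to 18 counts. Slc16a12, the creatine carrier MCT12, and Slc16a14 had at most 4 counts in any library. The summed level of the Slc16a family was 142 to 153 CPM per kilobase in Veh and 145 to 150.1 in Hcy, with a log2 ratio of 0.003.

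The sodium-coupled family was represented almost wholly by Slc5a6 (chr6:26686033-26697116), the carrier SMVT of biotin, pantothenate and lipoate. It had 15.7, 17.3 and 17.4 CPM in Veh and 17.8, 17.4 and 15.6 CPM in Hcy, and the groups overlapped. Its log2 fold change of 0.01 had a 95% interval of -0.24 to 0.26. Slc5a6 made up 94.3% to 98.6% of the family's summed level, which was 5.48 to 5.88 CPM per kilobase in Veh and 5.30 to 6.04 in Hcy. Slc5a2, the renal glucose carrier SGLT2, had 7, 4 and 0 counts in Veh and 1, 4 and 3 in Hcy, and Slc5a10 had 6, 3 and 3 in Veh and 4, 0 and 1 in Hcy. Both genes overlap others on the opposite strand, Slc5a2 with RGD1310127 and Slc5a10 with Grap and Fam83g, so these few reads may belong to them. Among 6 subunits of the sodium pump, which keeps the gradient these carriers use, 0 passed the adjusted p in edgeR (2.34% of all genes) or DESeq2 (4.14%) and 2 passed an unadjusted p of 0.05 in edgeR (13.4%). The abundant Atp1b3 had a log2 fold change of 0.25 (adjusted p = 0.151).

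The proteins that handle the carried fuels, or bring the carriers to the membrane, were read from a list of 57 genes, of which 54 have a row and 50 were tested. By edgeR, 0 of the 50 were called with the fold threshold, as by DESeq2, and 14 passed an unadjusted p of 0.05, against 13.4% of all genes. The adjusted p alone passed 5 in edgeR, against 2.34% of all genes, 3 of them lower (1.01% of all genes) and 2 higher (1.32%). In DESeq2 it passed 7, against 4.14% of all genes. The median log2 fold change of the list was -0.09, against -0.02 over all genes tested, and 30 of the 50 were below 0, against 53.1% of all genes.

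Bsg (basigin), the chaperone that takes MCT1 and MCT4 to the membrane, had 936, 933 and 1029 CPM in Veh replicates 1, 2 and 3 and 845, 759 and 769.6 CPM in Hcy replicates 1, 2 and 3. Its Hcy libraries were all below its Veh libraries, with a log2 fold change of -0.29 (95% interval -0.45 to -0.12), an adjusted p of 0.0933 in edgeR and 0.0209 in DESeq2. Emb (embigin), the other MCT chaperone, had 4.04 ± 1.11 CPM in Veh and 3.93 ± 1.07 CPM in Hcy (SD, n = 3), and the groups overlapped.

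Of 7 tested regulators of GLUT proteins, 2 had log2 fold changes above 0, both alpha-arrestins that draw GLUT1 from the membrane, and 5 below 0. Arrdc4 rose from 20.4 ± 1.71 CPM in Veh to 30.05 ± 3.05 CPM in Hcy (SD, n = 3; log2 fold change 0.56, edgeR adjusted p = 0.0377). Txnip was higher in every Hcy library, with 42.7, 39.4 and 37.5 CPM in Veh and 49.0, 46.4 and 49.4 CPM in Hcy, and its log2 fold change of 0.28 (95% interval 0.09 to 0.46) had an adjusted p of 0.144. Among the 5 below 0, Tbc1d4, which holds GLUT4 inside the cell, was lower in every Hcy library (log2 fold change -0.31, adjusted p = 0.214 in edgeR).

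In glycolysis, 2 of the 17 genes tested fell at the adjusted p alone in edgeR (1.01% of all genes). Pfkfb3, which makes the activator of phosphofructokinase and sets glycolytic rate in endothelium, fell from 391 ± 17.9 to 308 ± 6.31 CPM (log2 fold change -0.34, edgeR adjusted p = 0.0308). Pkm, pyruvate kinase, fell from 1263 ± 61.2 to 1002 ± 60.9 CPM (log2 fold change -0.33, adjusted p = 0.0491). Among 9 genes of lactate and pyruvate handling, edgeR passed 0 at the adjusted p (2.34% of all genes) and 3 at an unadjusted p of 0.05 (13.4%), and DESeq2 passed 1 at the adjusted p, Mpc1 (4.14%). Mpc1, a subunit of the mitochondrial pyruvate carrier, was lower in every Hcy library, with 115 ± 18.3 CPM in Veh and 84.4 ± 1.44 CPM in Hcy (SD, n = 3; log2 fold change -0.45). Its adjusted p was 0.0834 in edgeR and 0.00711 in DESeq2. Ldha, the main lactate dehydrogenase subunit, had a log2 fold change of -0.20 (edgeR adjusted p = 0.311). Akr1b1, aldose reductase, which turns glucose into sorbitol, fell from 185 ± 22.6 to 128 ± 5.06 CPM (log2 fold change -0.53, adjusted p = 0.0232). Isyna1, which makes inositol from glucose 6-phosphate, rose from 41.7 ± 3.72 to 57.7 ± 3.94 CPM (log2 fold change 0.47, adjusted p = 0.0326). When 1 library was left out, each of these 5 partner genes kept its direction. Their adjusted p then stayed at or under 0.05 without Veh replicate 3 and, for Akr1b1, without Veh replicate 1, and reached 0.141 to 0.218 in the least favourable case. With replicate number as a block in edgeR, the adjusted p of Pfkfb3 (0.0571), Pkm (0.0712) and Isyna1 (0.0511) was above 0.05.

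**Figure D4:**
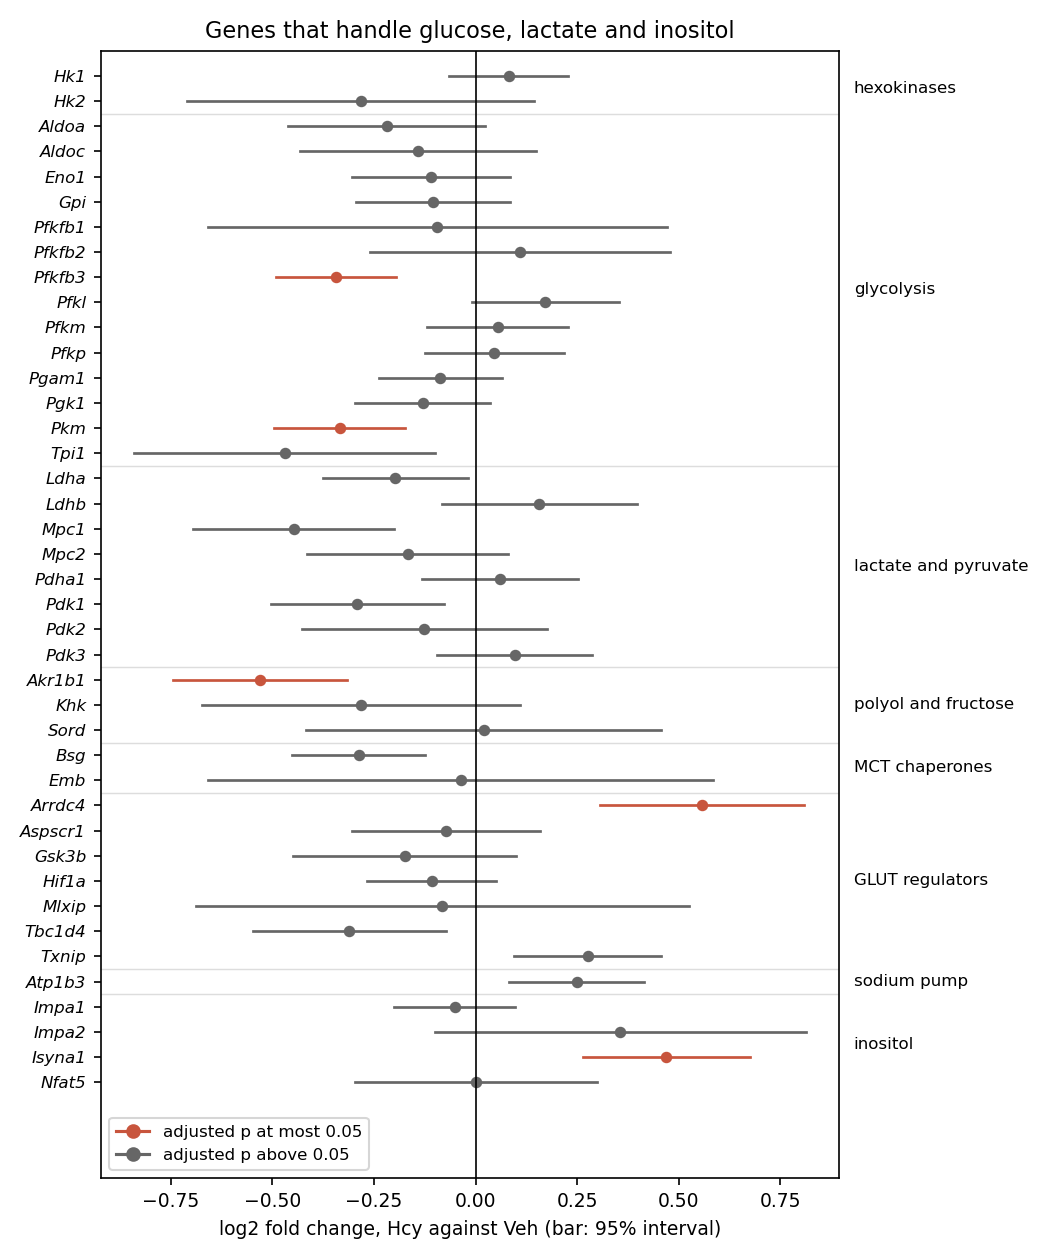
Log2 fold change of Hcy against Veh with its 95% interval from edgeR, for 41 partner genes with a mean level of at least 2 CPM, grouped by role. Red marks the 5 genes with an adjusted p of at most 0.05, Pfkfb3, Pkm and Akr1b1 below 0 and Arrdc4 and Isyna1 above it.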

How the data were processed

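The deposited table holds unnormalized read counts for each gene, with positions and lengths, in 6 libraries of poly(A) RNA. The submitters' processing notes name fastp, HISAT2 2.2.1, StringTie 2.2.3, Cufflinks, featureCounts 2.0.6 and DESeq2 1.42.0, and the builds mRatBN7.2 and rn7. The table names no build, and its positions reach 282724300 on chromosome 1, so positions are printed as listed. The strand setting is not given in the sources used here. A table of the authors' own comparison (fold changes and p-values) was not used.

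Groups were taken from the labels. In R 4.3.3, genes with at least 10 summed counts were compared with edgeR 4.0.16 (TMM, quasi-likelihood test, Benjamini-Hochberg over 14603 genes, called at adjusted p of at most 0.05 and absolute log2 fold change of at least 1), with treatment as the only term. TMM factors lay between 0.977 and 1.02. Alternatives were DESeq2 1.42.0, other scalings, count minimums and thresholds, a prior count of 2, a replicate block, and each library left out.

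Members and lists were chosen with earlier results of these data known. Full values were given for genes whose groups did not overlap at an unadjusted p of at most 0.05, for the 3 highest genes of each family and for Slc2a13. Partner genes were named past the adjusted p, with Bsg, Emb and Txnip. Slc16a13, Slc2a3, Mpc1, Tbc1d4 and other genes were named in addition. Some genes are counted but not reported here. Of the listed partners and markers, Hkdc1, Gapdh, Mlxipl, Pecam1, Abcb1a and Col1a2 have no row and were not analysed here.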

Additional observations from a re-analysis of the deposited data

How the results depend on the processing

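The number of transporters called was 0 and became 1, Slc2a3, with genes of at least 1 summed count, with the replicate block, at an unadjusted p and without Hcy replicate 3; leaving out each library gave 0 to 1. The number past the adjusted p alone, 0 in edgeR, was 2 with DESeq2 (Slc2a1, Slc16a6), 3 with at least 1 summed count (also Slc2a3), 1 with filterByExpr (Slc2a1), 1 with the replicate block (Slc2a3) and 0 to 3 when each library was left out, the 3 being Slc2a1, Slc16a1 and Slc16a6 without Veh replicate 3. Log2 fold changes kept their sign in all alternatives for 12 of the 20 genes compared. With each library left out, log2 fold changes crossed 0 for 8 genes, with ranges of -0.25 to 0.029 for Slc2a4, -0.031 to 0.14 for Slc2a6, -0.036 to 0.066 for Slc5a6, -0.049 to 0.21 for Slc16a4, -0.20 to 0.27 for Slc16a11, -0.068 to 0.95 for Slc16a5, -0.91 to 0.39 for Slc5a2 and 0.12 to 0.36 for Slc16a12, which kept 10 summed counts in 2 of these 6 fits. Slc16a14 kept them in none and has no such value. The cause was not tested. Family sums moved by less than their spread under library totals and with each library left out, and the number of partner genes called stayed 0 in every fit. With the replicate block, the adjusted p of Pfkfb3 (0.0571), Pkm (0.0712) and Isyna1 (0.0511) rose above 0.05. Replicate numbers gave correlations of 0.02, 0.17 and 0.06 between same-numbered libraries, so they were not taken as pairs; Hcy replicate 1 correlated best with Veh replicate 3. Genes under the floor of 3 counts per library limit what can be read from the low members.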

Other observations

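A row without an Slc name, AABR07044759.1, is matched by the table to the protein of the monocarboxylate transporter MOT9, and so falls outside the rule that chose the members. It had 50.0, 50.5 and 33.8 CPM in Veh replicates 1, 2 and 3 and 53.5, 53.8 and 53.7 CPM in Hcy replicates 1, 2 and 3. All Hcy libraries were above all Veh libraries, and Veh replicate 3 was the lowest, with a log2 fold change of 0.26 and an adjusted p of 0.488 in edgeR. Per kilobase, this row had 49.0, 49.3 and 49.2 CPM in Hcy, above Slc16a1 in each library (44.0, 47.0 and 45.2). In Veh it had 45.8, 46.3 and 31.0, below Slc16a1 in each library (53.3, 55.2 and 47.9). The order of levels and the Slc16a sum above therefore cover only genes chosen by name. Rows matched to Slc5a proteins without an Slc name had 0 counts in every library.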
